A study of Mus musculus and Homo sapiens with 22 samples.

Results

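Ttn encodes titin, the giant elastic protein of striated muscle that spans from the Z-disc to the M-band of the sarcomere and acts as a molecular spring. The transcripts are spliced in many ways, and RBM20, an RNA-binding protein of the heart, keeps many of the spring-encoding exons out of the cardiac forms. N6-methyladenosine (m6A) is written into mRNA by the METTL3 and METTL14 methyltransferase, mostly at an A in a DRACH motif (D is A, G or T, R is A or G, H is A, C or T), and is known to lie in long internal exons, around stop codons and in 3′ UTRs.

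Ttn was chosen by its number of m6A sites, since no other gene held more in mouse heart at the highest RNA input. Its sites were all listed positions on the minus strand between the ends of the gene, chr2:76703980-76982547 on GRCm38 (gene ENSMUSG00000051747). There were 196 of them among the 46421 sites listed for 1 µg of heart poly(A)+ RNA. With 300 ng there were 71 of 8845, with 100 ng 16 of 1112, and with 50 ng 6 of 248. The list of WT mouse embryonic stem cells (mESCs) held 25456 sites, 0 of them in Ttn. Since the number of heart sites chose the gene, these numbers are a description and were not tested. The gene with the next highest number of exonic sites at 1 µg was Ahnak, which encodes a giant scaffold protein, with 84 against 195 for Ttn.

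The lists come from miCLIP2, where RNA is crosslinked to an antibody against m6A and truncated cDNAs mark the modified A. Only positions that the classifier m6Aboost predicted to be m6A are listed. The 4 heart lists came from a titration of purchased mouse heart poly(A)+ RNA with 1 library per input, so they are not replicates, and the strain, age and sex of the animals are not given in the sources used here. The mESC list was made from 3 WT replicates. Gene counts were available for 6 RNA-seq libraries of mESCs grown with serum and LIF, 3 WT and 3 labelled Mettl3 knockout (KO), with 22746733 to 27254245 reads in genes per library. No heart RNA-seq was used here, so the level of Ttn RNA and the use of its exons in this heart sample are not known from these data.

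Ttn had 25 annotated transcripts. Sites were placed on the longest coding one, Ttn-203, which has 347 exons and 106824 nt, of which 105639 nt are coding. Its exons are short, with a median length of 267 nt, and only 21 of them are longer than 400 nt. The longest is exon 309 (17106 nt, chr2:76736064-76753169), which encodes much of the A-band part of titin. Ttn-203 exons held 188 of the 196 sites at 1 µg, 7 lay in the last exon of the short transcript Ttn-202, and 1 lay in an intron. Of the sites, 187 were in the coding sequence of Ttn-203 and 1 was in its 3′ UTR.

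The sites that were found at every input are shown first, because they carry the comparison between lists. Each is given as the 21 nt around the modified A on the RNA strand, written as DNA from 5′ to 3′, with the 5-nt motif in capitals. 4 positions were present in all 4 heart lists:
Exon 309, chr2:76740023-76740043: tgacgaatGGACTacctgtac
Exon 341, chr2:76713837-76713857: cttaacatGGACAgagccagc
Exon 341, chr2:76711503-76711523: cctttctgGAACTgaaactgt
Exon 346, chr2:76705949-76705969: tggtggaaGAACCaccgagag

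The exon 341 sites lie 365 and 2699 nt from the nearest exon junction in an exon of 5437 nt. The exon 309 site lies 3969 nt from a junction. The exon 346 site differs from them, since its exon is only 303 nt long and the A is 13 nt from a junction, the shortest such distance of any exonic Ttn site at 1 µg. The motif of this site, GAACC, was also uncommon among Ttn sites, with 3 of 196.

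The other 2 sites of the 50 ng list both lay in exon 287 (2967 nt) and were missing at 100 ng but present at 300 ng and 1 µg:
Exon 287, chr2:76767620-76767640: ataaagacGAACTcatcaggc
Exon 287, chr2:76766531-76766551: acaccattAGACTcgaggcag

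Column 5 of the heart lists gives each site a value whose scale is not stated. Here it served to order the sites of each list and nothing else. The highest value was shared by 61 sites at 1 µg, and 7 of them (11.5%) were in Ttn. Both exon 341 sites found at every input were among these 7. The other 5 are shown because no Ttn site ranked higher at the highest input:
Exon 341, chr2:76713927-76713947: tgatcaaaAGACAgtcgaact
Exon 341, chr2:76709960-76709980: gagattctGGACTgccagact
Exon 341, chr2:76709803-76709823: tcttccctGAACTgacaaaaa
Exon 341, chr2:76709072-76709092: gcttctaaAGACAttgcaaag
Exon 347, chr2:76705096-76705116: aagatggcGGACTttataccc

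So 6 of the 7 top-valued Ttn sites lay in exon 341 and 1 in exon 347, the last exon. At 300 ng, all 7 were listed again, with ranks between 27 and 345 of 8845. Every 21-nt window around the 198 Ttn positions of the heart lists occurred no more than once in the spliced Ttn-203 sequence, so the repeated Ig and fibronectin type III domains of titin did not give any of these windows a second copy in the transcript.

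Sites were concentrated in the long exons. At 1 µg, 172 of 188 exonic sites (91.5%, 95% Wilson interval 86.6 to 94.7%) were in the 21 exons over 400 nt, which make up 39.4% of the transcript. These exons held 4.09 sites per kb. The 326 exons of up to 400 nt held 16 sites, or 0.247 per kb. The 152 exons of up to 200 nt held 0. At 300 ng the exons over 400 nt held 68 of 70 exonic sites, at 100 ng 14 of 15 and at 50 ng 5 of 6. Intervals here and below cover counting error only, since the lists give no read depth and a position without a site may be unmodified or too thinly covered.

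**Figure D1:**
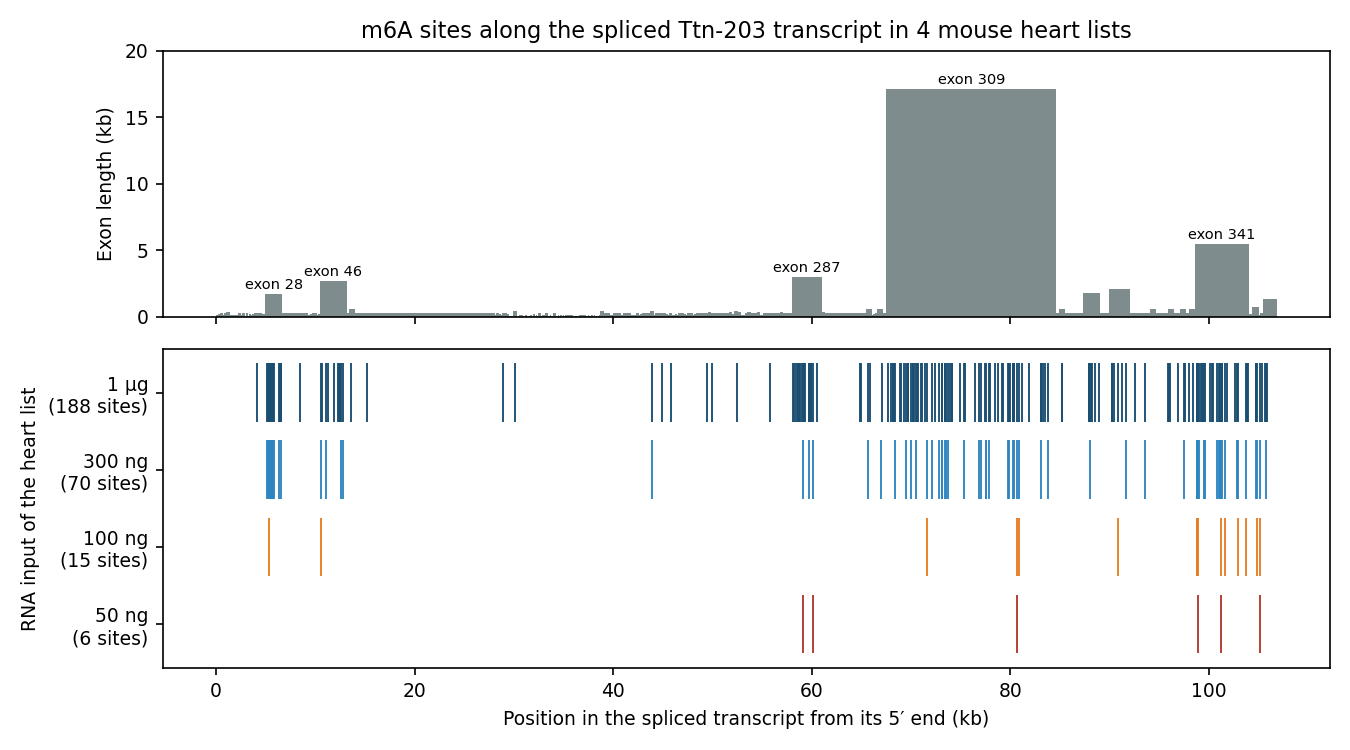
Upper panel, length of each Ttn-203 exon (kb) against its position in the spliced transcript (kb from the 5′ end). Lower panel, each vertical line is an exonic site in the heart list of the given RNA input, with 188, 70, 15 and 6 sites. Lines crowd under exons 28, 46, 287, 309 and 341, and are few between exons 46 and 287.

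Exon 309 alone held 67 sites, or 3.92 per kb. Exon 341 had 27 (4.97 per kb) and exon 287 had 18 (6.07 per kb). Exon 28 (1694 nt, chr2:76944309-76946002) was the densest exon over 400 nt, with 14 sites or 8.26 per kb. Exon 46 (2646 nt, chr2:76907308-76909953), at the place of the cardiac N2B spring element, had 10 sites. These 5 exons are those with the most sites and held 136 of the 188.

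Among the longest exons, exon 322 (2067 nt) had 6 sites and exon 318 (1767 nt) had 8. The last exon (1350 nt), which ends the coding sequence, had 3, of which 2 were coding. Only 3 exonic sites lay within 400 nt of the stop codon. 129 of them lay more than 20 kb upstream of it along the transcript. The sites were not even along the coding sequence, since 151 of the 188 lay in exons 287 to 347, which span 48810 nt at the 3′ end.

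**Figure D2:**
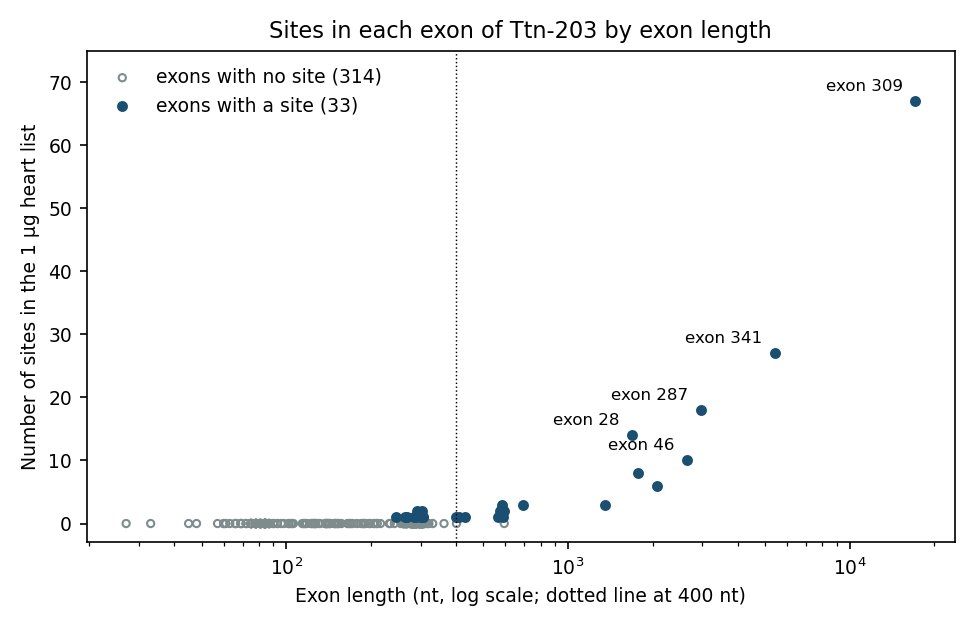
Number of 1 µg sites in each of the 347 exons of Ttn-203 against exon length (nt, log scale). Filled points are the 33 exons with a site and open points the 314 without. The dotted line marks 400 nt, to the right of which 19 of 21 exons have a site.

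The 2 exons over 400 nt with 0 sites were exon 208 (402 nt, with 6 DRACH motifs) and exon 330 (594 nt, with 15). The 14 shorter exons with sites were between 245 and 306 nt long. Of the 16 sites in them, 14 were absent at 300 ng. The exceptions were the exon 346 site above and a site in exon 328.

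The middle of the transcript had few sites. Exons 47 to 286, which include the exons for the tandem Ig and PEVK spring segments, span 44859 nt and held 11 sites at 1 µg and 1 at 300 ng. They are mostly short, with a median of 160.5 nt. 13785 nt of transcript between exons 53 and 103, and 13731 nt between exons 112 and 231, held no site. The share of DRACH motifs with a site was 1.07% (0.597 to 1.90%) in exons 47 to 286, and 11.8% (10.1 to 13.8%) in exons 287 to 347.

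When exons of the same length class were compared, the blocks were closer. In exons of 201 to 400 nt, 7 of 742 motifs had a site in exons 47 to 286 (0.943%, 0.458 to 1.93%) and 7 of 311 in exons 287 to 346 (2.25%, 1.09 to 4.57%), with overlapping intervals. In exons over 400 nt the shares were 9.76% (4 of 41, 3.86 to 22.5%) and 15.8% (134 of 849, 13.5 to 18.4%), again overlapping. Exons that are spliced out of heart Ttn are missing from the spliced RNA, and the part of exon inclusion in the low numbers was not tested.

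DRACH motifs numbered 2547 in Ttn-203, and 177 of them (6.95%, 6.03 to 8.0%) had a site at 1 µg. For comparison, 5.88% of the 648000 DRACH motifs in the longest coding transcripts of 8210 other protein-coding genes with a heart site did (5.82 to 5.94%). In Ttn 2517 of the motifs lie in internal exons, and in the other genes 276640, so internal exons were compared next. There, the share was 6.95% in Ttn and 3.35% in the other genes. Ttn was chosen for its sites, so these shares are shown side by side without a test.

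**Figure D3:**
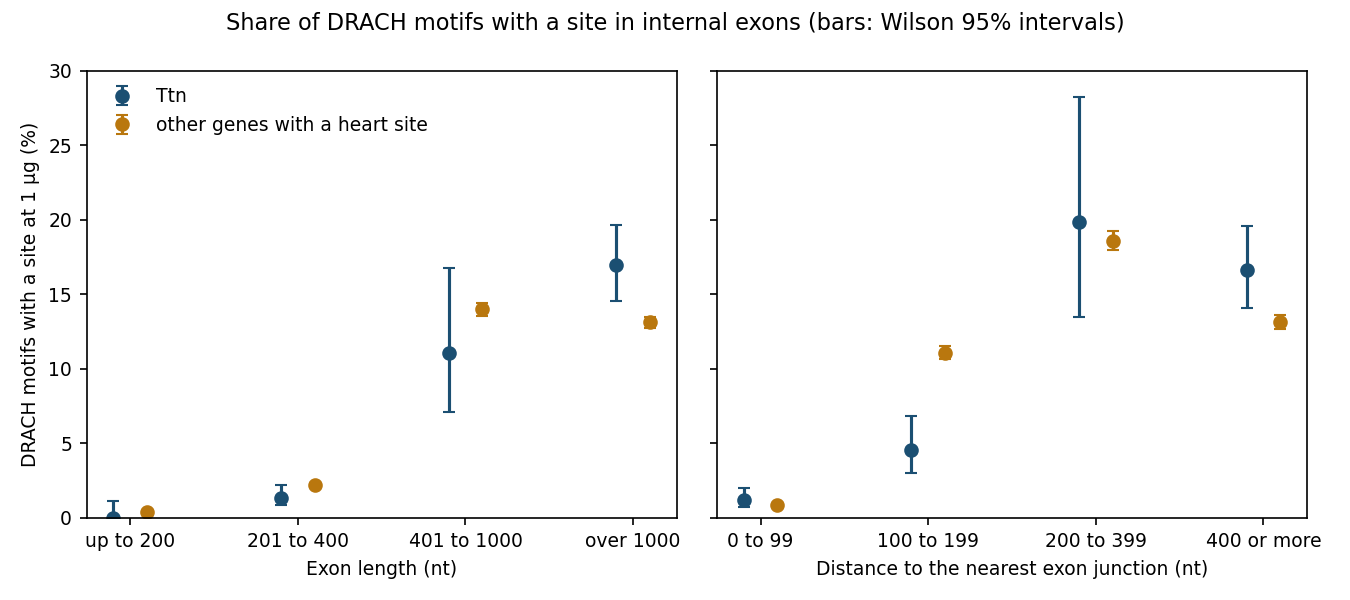
Share of DRACH motifs in internal exons that had a site at 1 µg (%), by exon length (left, nt) and by distance to the nearest exon junction (right, nt), for Ttn and the other protein-coding genes with a heart site. Points are shares and bars Wilson 95% intervals. Shares in Ttn rise from 0% in exons of up to 200 nt to 16.9% in exons over 1000 nt.

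By exon length, the shares in Ttn were 0 of 336 motifs in exons of up to 200 nt (interval up to 1.13%), 1.35% at 201 to 400 nt, 11.0% at 401 to 1000 nt and 16.9% above 1000 nt. The other genes had 0.391, 2.19, 14.0 and 13.1%. In both, the share was lowest in the shortest exons. As the site count chose Ttn, nothing is read from the differences between Ttn and the other genes, here and below.

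By distance to the nearest junction, the share in Ttn was 1.21% under 100 nt, 4.53% at 100 to 199 nt, 19.8% at 200 to 399 nt and 16.6% from 400 nt on. In the other genes these shares were 0.843, 11.1, 18.6 and 13.2%. Exon length and distance were then combined. In internal exons of up to 400 nt, motifs at least 100 nt from a junction had a site in 6 of 358 cases in Ttn (1.68%, 0.770 to 3.61%) and in 5.50% (5.03 to 6.01%) in the other genes. In internal exons over 400 nt, 6.76% of Ttn motifs under 100 nt from a junction had a site (5 of 74), and 17.1% of those at least 200 nt away (139 of 815).

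The motifs of the Ttn sites were those of the whole list. DRACH made up 185 of 196 sites (94.4%, 90.2 to 96.8%), against 93.1% of all sites at 1 µg. GGACT was the most frequent with 37 sites, followed by GAACT with 30, AGACT with 28 and GGACA with 25. The classifier uses the 21 nt around a site, so the motif shares carry its preferences. Among the 11 sites outside DRACH were 4 at GTACT and 3 at GGACG.

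Not every copy of a frequent motif was a site, and the share with a site differed with exon length. Distance to a junction and exon inclusion were not held equal between the length classes. In internal Ttn exons over 400 nt, 28 of 36 GGACT motifs had a site (77.8%, 61.9 to 88.3%), as did 28 of 38 GAACT (73.7%) and 27 of 47 AGACT (57.4%). In internal exons of up to 400 nt, 6 of 43 GGACT motifs had one (14.0%, 6.56 to 27.3%), 0 of 67 GAACT (up to 5.42%) and 0 of 89 AGACT (up to 4.14%). So the pentamers that were sites in most copies of the long exons were sites in few or no copies of the short ones.

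The same order was seen in the other genes with a heart site. There, 50.2% of GGACT, 40.3% of GAACT and 29.1% of AGACT motifs in internal exons over 400 nt had a site, and 4.37, 2.03 and 1.80% in shorter internal exons.

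Exon 309 held 17 GGACT motifs, of which 14 had a site. The 3 without a site are shown as counterexamples, chosen after their values were seen. They lay 54, 269 and 116 nt from the nearest site and at least 979 nt from a junction:
Exon 309, chr2:76746717-76746737: atgctgctGGACTtagtgaac
Exon 309, chr2:76746028-76746048: atcaccaaGGACTcggtatca
Exon 309, chr2:76737033-76737053: agtccacaGGACTccgagaag

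Pairs of neighbouring sites along Ttn-203 were a median of 180 nt apart (order-statistic 95% interval 148 to 223 nt, 187 gaps), with 31 gaps under 50 nt. Within the same exon the median was 148 nt (110 to 175 nt). In exon 309 it was 196.5 nt (139 to 271 nt) and in exon 28, the densest, 68 nt (29 to 159 nt). In the other genes, neighbouring sites of the same transcript were a median of 114 nt apart (112 to 115 nt). Sites fell on every base of the codon, with 57 DRACH sites at the first, 62 at the second and 57 at the third base, or 6.20%, 7.22% and 7.62% of the motifs there, with overlapping intervals.

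In sites per kb, Ttn ranked below the middle of the genes compared. Ttn-203 had 1.76 sites per kb. The median was 2.63 in the 1136 genes with at least 10 sites, of which Ttn ranked 938. A floor on the number of sites keeps short genes only if they are dense, and the rank of Ttn moved with it. Its percentile was 39.2 with at least 5 sites, 17.4 with at least 10 and 8.44 with at least 20. A rank over all genes with a site is not given here. The next genes by number of sites were Ahnak (84), Kmt2d (57), Plec (51), Macf1 (48) and Xirp2 (40). Kmt2d encodes a histone H3 lysine 4 methyltransferase, Plec and Macf1 encode cytoskeletal linker proteins, and Xirp2 encodes an actin-binding protein of striated muscle. Per kb of exons from all transcripts, they had 4.21 (Ahnak), 2.86 (Kmt2d), 2.82 (Plec), 1.53 (Macf1) and 3.34 (Xirp2), and Ttn had 1.67.

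Among the genes whose site numbers over the 5 mouse lists were nearest to those of Ttn, by Euclidean distance of log2(sites + 1), were Xirp2, Xirp1, Plin4 and Speg. Each of them had 0 sites in mESCs. From the highest to the lowest input Xirp2 had 40, 19, 6 and 3 sites. Xirp1, which encodes another actin-binding protein of striated muscle, had 33, 25, 10 and 1. Plin4, encoding a lipid droplet protein, had 38, 19, 8 and 1. Speg, encoding a kinase of striated muscle, had 33, 14, 5 and 1.

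The Ttn sites ranked high in the heart lists. At 1 µg their median percentile in column 5 was 92.9 (90.6 to 95.4), 117 of 196 were in the top 10% of the list and 16 were below its middle. The median was 80.8 (72.1 to 90.6) in the 300 ng list. It was 76.2 (54.0 to 87.9) in the 100 ng list and 56.7 (31.9 to 90.1) in the 50 ng list. The lower-input lists hold fewer sites, so the percentiles are relative to different sets.

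**Figure D4:**
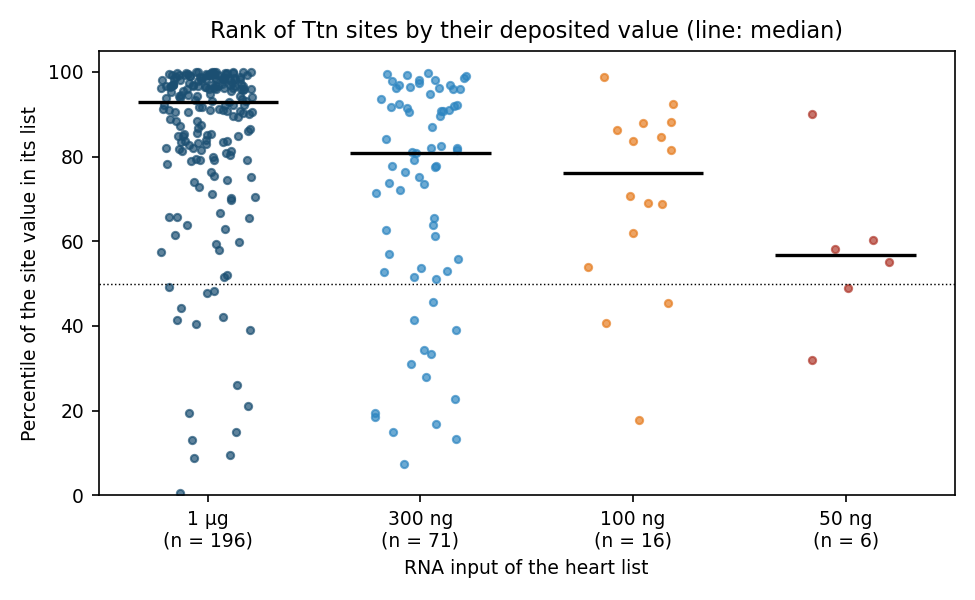
Percentile of the deposited value of each Ttn site within its own heart list, by RNA input. Points are sites (196, 71, 16 and 6), spread sideways for clarity, and lines are medians of 92.9, 80.8, 76.2 and 56.7. The dotted line marks the middle of each list.

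Rank differed between exons. The median percentile at 1 µg was 98.8 in exon 341, 98.2 in exon 28, 93.3 in exon 309, 92.2 in exon 46, 88.6 in exon 287 and 77.3 in exon 318. Sites in exons of up to 400 nt had a median of 66.2 (44.2 to 81.5, n = 16), and those in longer exons 93.9 (91.4 to 96.0, n = 172).

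The sites printed above as present in all 4 lists did not keep their order. The exon 309 site was at the 99.3, 92.2, 84.6 and 60.3 percentile from the highest to the lowest input. The GGACA site of exon 341 was at 99.9, 99.7, 98.8 and 55.0, and the GAACT site of that exon at 99.9, 99.5, 61.9 and 49.0. The exon 346 site, in a short exon, was at 98.6, 97.4, 86.3 and 58.3, so these sites were near the top at 1 µg and near the middle at 50 ng. Of the exon 287 sites listed at 50 ng, the GAACT site was at 99.6, 98.6 and 90.1 in the 1 µg, 300 ng and 50 ng lists, and the AGACT site at 69.8, 52.7 and 31.9.

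Almost all low-input Ttn sites were present at 1 µg. This was so for 69 of 71 at 300 ng (97.2%, 90.3 to 99.2%), 16 of 16 at 100 ng and 6 of 6 at 50 ng. For sites outside Ttn the shares were 93.3, 96.2 and 95.5%. The 2 sites found only at 300 ng lay in exons 307 and 309 and were at the 31.0 and 34.3 percentile of that list.

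In the other direction, 69 of 196 Ttn sites at 1 µg were listed at 300 ng (35.2%, 28.9 to 42.1%), against 17.7% of sites outside Ttn exons (17.4 to 18.1%). Recovery followed rank. When the sites were put into 4 groups of 49 by their 1 µg values, 46 sites of the highest group were found at 300 ng (93.9%). The next groups had 13, 6 and 4. Across the 69 shared Ttn sites, the values at both inputs had a Spearman rho of 0.58, which is a description over positions of 1 transcript from 2 libraries of the same purchased RNA.

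By exon, 11 of the 14 sites of exon 28 were found again at 300 ng, as were 15 of 27 in exon 341, 25 of 67 in exon 309, 4 of 10 in exon 46 and 3 of 18 in exon 287. Exon 287 held 2 of the 6 sites at 50 ng and none at 100 ng. The 100 ng sites lay mainly in exon 341 (7) and exon 309 (3).

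7 sites at 1 µg lay in an exon that Ttn-203 lacks. It is the last exon of Ttn-202 (6520 nt, chr2:76913944-76920463), the novex-3 exon that ends a short titin ending in the I-band. All 7 were coding, all were at DRACH motifs, and they occupied 5.30% of its 132 motifs (2.59 to 10.5%). Its density was 1.07 per kb, against 3.78 per kb in exon 46. One of the 7 was also found at 300 and 100 ng, and ranked at the 99.4 percentile at 1 µg:
Novex-3 exon, chr2:76916593-76916613: gtatgaagGAACTctagaaaa

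Genes whose products bind titin or act on it were read from the same lists. Of 28 such genes, 21 had a site at 1 µg, with 130 sites in all and a median of 2 per gene. Over all genes, 8512 had an exonic site at 1 µg, and without heart RNA-seq their share of expressed genes is not known. Rbm20, which encodes the splicing regulator of titin, had 20. Ldb3, encoding a Z-disc PDZ protein, had 11, and the M-band gene Myom1 had 10. Tcap, whose product caps titin at the Z-disc, had 2, and the myosin heavy chain genes Myh6 and Myh7 had 1 and 0. In mESCs 3 of the 28 had a site, and Nbr1, encoding an autophagy receptor that binds the titin kinase, had 9 of their 11 sites. Of all genes tested in the mESC RNA-seq libraries 41.5% had an mESC site, but only 18 of the 28 were tested there.

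Among heart muscle markers, Ryr2 had 23 sites at 1 µg, Pln 11, Tnnt2 2 and Myh6 1, whereas 5 of 9 had 0 (Tnni3, Actc1, Nppa, Myl2 and Myl7). The pluripotency markers Pou5f1, Sox2, Nanog and Zfp42 had 0 sites in heart and 1, 15, 7 and 5 in mESCs, while Esrrb and Klf4 had 6 and 13 in heart and 15 each in mESCs. Dppa5a had 0 in heart and 0 in mESCs. Markers of other cell types had sites too, with 28 in 4 fibroblast, 36 in 3 endothelial and 6 in 3 smooth muscle markers. Skeletal muscle markers had 1 site, in Acta1.

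Ttn RNA was counted in every mESC library although the mESC list had 0 Ttn sites. The WT libraries had 955, 823 and 1807 Ttn reads and the KO libraries 4198, 5960 and 5664. As CPM, counts scaled to the library total with TMM factors, Ttn was at 45.1, 31.3 and 85.4 in WT. Its CPM in KO was 167, 201 and 209. All KO libraries were above all WT libraries, and WT replicate 3 was the highest of its group.

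Ttn was higher in KO by 1.84 on the log2 scale (SE 0.29, 3.57-fold), with an adjusted p of 0.000731 by the edgeR quasi-likelihood test. Of 15731 genes tested, 29.7% passed the threshold of 0.01, 17.1% as higher in KO, so a call is common in this comparison. The Ttn change was at the 95.2 percentile of all log2 fold changes. CPM ranges did not overlap for 56.1% of genes, and for 29.2% with KO above WT. In bulk RNA, more Ttn RNA per cell and more cells that express Ttn cannot be told apart. The study calls the mESC samples biological replicates, without stating how they were kept apart, and p measures the spread between these libraries.

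Counts over the whole Mettl3 gene did not show the knockout. They were 560, 698 and 612 in WT and 462, 669 and 457 in KO, a log2 difference of -0.50 (adjusted p 0.0134 by edgeR, not past the threshold, and 0.00281 with the replicate number as a block). The sources used here do not say which part was deleted, and reads from outside it would be counted, so these values do not check the labels. By mass spectrometry, the study itself reported depletion of m6A in poly(A)+ RNA of its KO cells.

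Per exon length, Ttn was a low transcript in mESCs. Divided by the exon length of all transcripts in kb (RPKM), its level averaged 0.462 ± 0.240 in the WT libraries (SD, n = 3), at the 17.9 percentile of the genes tested. KO averaged 1.65 ± 0.192 (SD, n = 3), at the 34.7 percentile. By CPM, which counts a long gene more often, it was at the 76.1 and 95.4 percentile. Of the 1564 other tested genes with a WT RPKM within 1.5-fold of Ttn, 12 had an mESC site (0.767%, 0.439 to 1.34%), whereas 50.5% of genes above the RPKM of Ttn did. The list thus held few sites in genes near the RPKM of Ttn, though not none. These genes were not matched on length, and Ttn has 116825 nt of exons, so their share is not an expectation for Ttn. The part of RNA level in the absence of Ttn sites was not tested. Xirp1, Xirp2, Plin4 and Speg were lower still in WT, with mean RPKM of 0.0119 (Xirp1), 0.0300 (Xirp2), 0.0606 (Plin4) and 0.255 (Speg).

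Of the 28 titin partner genes, 18 were tested, 4 were called higher in KO and 0 lower. The median log2 fold change of the 18 was 0.59, beside -0.02 over all genes tested. The 4 are 22.2% of those tested, near the 17.1% of all genes that were called higher. In this fit the count thus says nothing particular of these genes. Over all genes 12.6% were called lower. In the fit that blocked on replicate number, 8 of the 18 were called higher and 2 lower, where 23.5% of all genes were higher and 20% lower. How the count compares with all genes thus depended on the fit, and the list was not tested as a set.

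The 4 higher genes were all low. Smyd1, which encodes a lysine methyltransferase needed for sarcomere assembly, had 15, 10 and 28 counts in the WT libraries and 176, 148 and 172 in those of KO, a log2 change of 2.95 (SE 0.38, edgeR adjusted p 0.000217). Fhl2, encoding a LIM protein that binds the titin spring, went from 1, 4 and 5 to 34, 33 and 26 counts, a log2 change of 2.93. Cryab, encoding a small heat shock protein that binds titin, went from 19, 29 and 28 to 165, 125 and 113, a log2 change of 2.16. Rbm20 went from 175, 284 and 135 counts to 444, 701 and 462, a log2 change of 1.19 (SE 0.21, edgeR adjusted p 0.00134).

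The other 14 partner genes did not pass, with log2 differences between -1.21 (Ldb3) and 1.48 (Trim54). By edgeR adjusted p the nearest to the threshold were Obsl1 at 0.59 (adjusted p 0.0104), Actn2, encoding the Z-disc crosslinker alpha-actinin 2, at 0.88 (0.0129), Fhl1 at 0.66 (0.0141), Ldb3 (0.0143), Trim54 (0.0197) and Myh6 at 1.18 (0.0198). The remaining 8 had adjusted p from 0.0487 (Ankrd23, -0.94) to 0.822 (Myom1, 0.11). Under the block, Actn2, Obsl1, Fhl1 and Trim54 were added as higher, and Ldb3 and Trim63, which encodes a muscle ubiquitin ligase, as lower. Csrp3, Myoz2 and Trim55 had 0 counts in all 6 libraries, and Tcap had 1 count over the 6.

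**Figure D5:**
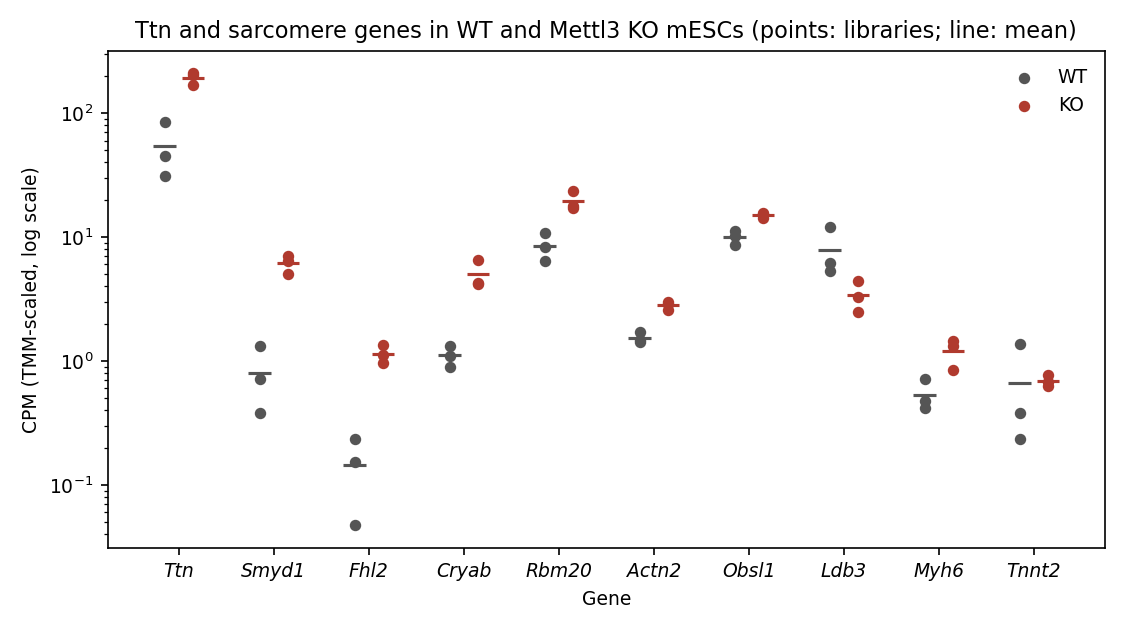
CPM (TMM-scaled, log scale) of Ttn and 9 titin partner or heart muscle marker genes in 3 WT and 3 KO mESC libraries. Points are libraries and lines are group means. For Ttn, WT lies between 31.3 and 85.4 and KO between 167 and 209.

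Markers of other cell types were read from the same libraries. Of 9 heart muscle markers, Actc1, Pln and Nppa had 0 counts in all libraries, 5 were tested, 0 were called higher and Myl7, encoding an atrial myosin light chain, was lower by edgeR. Their summed CPM was 23.01 to 27.3 in WT and 19.0 to 20.1 in KO. The summed CPM of 7 skeletal muscle markers was 0.142 to 0.378 in WT and 0.628 to 3.78 in KO, with Myh1 and Myh2 at 0 throughout. Only 1 of the 7 was tested, Acta1, encoding skeletal actin. It was not called, but with the block it was higher by 3.80 on the log2 scale (edgeR adjusted p 2.05e-05). This rests in part on KO replicate 1, with 86 counts of Acta1 against 12 and 11 in the other KO libraries. Without the block the log2 difference was 3.90 in all 6 libraries, and 2.14 without KO replicate 1. Smooth muscle markers summed to 0.838 to 1.37 in WT and 0.813 to 13.6 in KO, where KO replicate 1 had 328 counts of Acta2 against 19 and 7 in the other KO libraries. Of 3 endothelial markers Cdh5 was called higher, at 0 or 1 count in WT and 11 or 12 in KO. Of 4 fibroblast markers 2 were tested and 0 were called. Over all genes tested, 17.1% were called higher and 12.6% lower in this fit without the block. With the block, Kdr (endothelium) and Pdgfra (fibroblast) were higher by 1.67 and 1.01 on the log2 scale. Pecam1 (endothelium) was at -0.03 and Col1a1 (fibroblast) at -0.80, and neither was called. Cnn1, the only tested gene of 3 smooth muscle markers, was lower with the block, at -2.07, and was not called without it. Over all genes tested, 23.5% were called higher and 20% lower with the block. The 7 pluripotency markers summed to 3459 to 3607 CPM in WT and 2908 to 2920 in KO, with 1 called lower (Dppa5a) and, with the block, Esrrb higher at 0.43. These sums include Dppa5a, whose mean CPM was 957 in WT and 298 in KO. By mean CPM, Esrrb, Sox2 and Zfp42 were higher in KO, and Pou5f1, Nanog and Klf4 were lower. The part of other cell types in the Ttn change was not tested.

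Gm13938, which lies within Ttn on the opposite strand, had at most 1 read in any library, with counting by strand.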

How the data were processed

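Files were used as the authors deposited them. The deposited mouse site lists hold 1 row per m6A site. Per the study's methods, the authors mapped miCLIP2 reads to GRCm38.p6 with STAR 2.7.3a, removed duplicates with UMI-tools 1.0.0, called peaks with PureCLIP and kept peaks at A that m6Aboost predicted from sequence, transcript region, relative signal and C-to-T changes. The deposited score column of the mESC list is the m6Aboost score (peaks in at least 2 of 3 replicates), that of the heart lists has no stated scale. Sample titles give heart inputs of 300, 100 and 50 in µg, list names in ng, which was used. The deposited counts were made by the authors with STAR 2.6.1b and HTSeq 0.12.4, by strand, on GENCODE M23. Lines that name no gene (36.7 to 42.7% of the total of all lines, these included) were left out. The HEK293T list was not used here.

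Sites were placed on GENCODE M21 exons and the GRCm38.p6 genome. Motifs near exon ends were read on the genome. A site counted for a gene when only that gene's exons held it on its strand. Genes were tested with edgeR 4.0.16 in R 4.3.3 (filterByExpr, TMM, KO against WT, Benjamini-Hochberg adjusted p of at most 0.01). Shares have Wilson intervals, medians order-statistic intervals. Scripts were tested on simulated data. Python 3.11.15, pandas 2.3.3, SciPy 1.17.1 and Matplotlib 3.10.9 were used.

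Same-numbered WT and KO libraries deviated together from their group means (correlations 0.122, 0.464 and 0.303), so the replicate number was treated as a pairing in an alternative fit with a block. Pairs with different numbers had correlations from -0.342 to 0.11, the highest (WT 3 with KO 1) near the 0.122 of number 1. Other alternatives were DESeq2 1.42.0, other scalings and filters, leaving out each library, other exon-length limits, DRACH sites only, merged exons, RRACH motifs, other lists, and a match within 2 nt.

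Named were Ttn, the partner and marker lists, the 5 genes with the most heart sites after Ttn, the 5 nearest to it, its 5 top-valued sites with ties, its sites in the 50 ng or in all 4 heart lists, and its exons that were longest, last or richest in sites. Ttn, the lists and these rules were chosen with earlier results of these data known. Mettl3 is named as the knockout target. Results of 1 gene that this rule names are not reported here. The GGACT motifs without a site, the exons over 400 nt with 0 sites and Gm13938 were named after values were seen.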

Additional observations from a re-analysis of the deposited data

How the results depend on the processing

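The Ttn change was called in all 12 alternatives, between 1.55 and 2.33 on the log2 scale with adjusted p up to 0.00692, and was lowest without WT replicate 2 and highest without WT replicate 3. With the replicate block it was 1.95. Leaving out 1 library at a time gave 2761 to 5412 called genes, of which 1806 to 3040 were higher, against 4669 and 2687. The lowest counts were 2761 without KO replicate 1, 3108 without WT replicate 1 and 3109 without KO replicate 3. With library size in place of TMM, all genes had a median log2 difference of 0.08 instead of -0.02, and 71.0% of calls were higher instead of 57.5%. Partner genes called higher and lower were 7 and 1 by DESeq2, 8 and 2 with a filter of 1 count, 8 and 2 with the replicate block, and 4 to 5 and 0 to 1 when 1 library was left out. Over all genes, 2974 of 15731 were higher by DESeq2, 3771 of 31057 with that filter and 3694 of 15731 with the block. Called in either direction were 5481 by DESeq2, 6406 with that filter and 6837 with the block. The filter of 1 count took in all but 3 of the 28 partner genes, against 18 in the main fit. Among the named genes that were tested, the block also added calls for Ahnak (0.62), Mettl3, Acta1, Cnn1, Pdgfra, Kdr and Esrrb, and changed no other call. Myl7 was lost without any 1 of 5 libraries (-1.57 to -0.99), WT replicate 2 being the exception. The share of Ttn sites in long exons was 95.7% with a limit of 300 nt, 81.4% with 1000 nt and 97.1% in the 300 ng list. RRACH motifs in place of DRACH gave 8.75% of motifs with a site. The median percentile was 80.8 in the 300 ng list. By sites per kb Ttn ranked 1968 among 3236 genes with at least 5 sites and 142 among 155 with at least 20, each time below the middle of the genes compared. Other site alternatives stayed within 1.5 times the count or within the interval given. The lists hold no read depth, so sites that were missed for low coverage cannot be told from unmodified positions, and 6 or 16 sites in the lowest inputs leave wide intervals.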
